A study of Mus musculus with 56 samples.

Results

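Liver mRNA of 10 genes that make, conjugate, carry and sense bile acids was followed, out of 52230 genes measured, in male mice carrying proline or leucine as amino acid 446 of GKRP, the regulator of glucokinase that Gckr encodes. The genes were listed by name: the hydroxylases Cyp7a1, Cyp8b1, Cyp27a1 and Cyp7b1, the conjugating enzymes Slc27a5 and Baat, the transporters Slc10a1 and Abcb11, and the nuclear receptors Nr1h4 (FXR) and Nr0b2 (SHP). All 10 were found and all 10 passed the filter on low counts in every comparison.

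The mice belonged to the knock-in line GCKR-P446L-EMI-B6N and were homozygous for proline (PP, 10 mice), heterozygous (PL, 8 mice) or homozygous for leucine (LL, 10 mice). Every mouse, controls included, was fed for 20 weeks on the diet called HFHSD, rich in fat (45% of energy) and sugar, with 10% glucose and 5% fructose in the water. Further groups of PP (10 mice), PL (8 mice) and LL (10 mice) also received a glucokinase activator (GKA) at 3 mg/kg in the diet. PP mouse 7 was left out of the comparisons, so that 9 PP mice without GKA and 55 mice in all remained. The variant was carried in the germ line and so in every cell of the mouse, and the labels give no age, litter, batch or hour of harvest. Counts per gene do not show the substitution itself, so the genotypes are those of the labels.

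Hepatocytes make bile acids from cholesterol by a classical route that starts with Cyp7a1, the rate-limiting enzyme, and an alternative route that starts with Cyp27a1 and continues with Cyp7b1. Cyp8b1 adds the hydroxyl group that makes cholic acid. Slc27a5 activates bile acids with coenzyme A and Baat joins them to taurine. Abcb11 (BSEP) then pumps them into bile, while Slc10a1 (NTCP) takes up those that return in portal blood. Bile acids bind FXR, which induces SHP and Abcb11, and SHP represses Cyp7a1 and Cyp8b1.

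Bulk liver libraries had between 5189852 and 8093368 reads per mouse (median 6555851). The 5 hepatocyte markers summed to between 71810 and 125500 CPM (reads per gene scaled to a common library total) in any mouse. The 4 adipose and 4 pancreatic markers summed to at most 0.234 and 0.642 CPM, with 2 to 4 of the adipose and 3 of the pancreatic markers at 0 reads in every group. Reads of the members ranged from 4 to 207 per mouse for Cyp7a1 and from 71 to 464 for Nr0b2 up to 2904 to 5643 for Slc27a5, so that counting error weighed most on Cyp7a1.

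Nr1h4 lies on chromosome 10 at 89289742 to 89369497 (GRCm39, minus strand) and Nr0b2 on chromosome 4 at 133280678 to 133283847 (plus strand). RefSeq promoter windows of these genes, from 250 bases before to 50 bases after the start site (GRCm38.p6), are shown because they are the members that were differentially expressed below. The Nr0b2 window is at chr4:133553126-133553425 on the plus strand and the Nr1h4 window at chr10:89506609-89506908 on the minus strand. Capitals mark the E-box CACGTG, and everything else is in lower case.
Nr0b2: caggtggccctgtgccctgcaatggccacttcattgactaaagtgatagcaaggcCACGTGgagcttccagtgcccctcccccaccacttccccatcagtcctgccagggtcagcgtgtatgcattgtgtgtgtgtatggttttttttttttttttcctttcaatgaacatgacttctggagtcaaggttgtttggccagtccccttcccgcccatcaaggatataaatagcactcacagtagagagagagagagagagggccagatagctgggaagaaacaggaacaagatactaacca
Nr1h4: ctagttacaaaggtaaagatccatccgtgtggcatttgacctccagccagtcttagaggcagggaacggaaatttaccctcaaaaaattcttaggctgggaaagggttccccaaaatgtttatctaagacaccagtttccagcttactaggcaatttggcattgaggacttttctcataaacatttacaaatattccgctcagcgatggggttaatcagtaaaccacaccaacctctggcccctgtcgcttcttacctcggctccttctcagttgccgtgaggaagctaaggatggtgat

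The E-box of Nr0b2 began at position -195 from the start site. CACGTG reads the same on both strands and was present in 7.15% of the 32851 RefSeq windows of this length. It was the sole match, among the members with a window, to 4 motifs searched on both strands. The other motifs were the D-box (TTATGTAA or TTACGTAA, 1.06% of windows), the LRH-1 half-site (CAAGGTCA, 1.56%) and the perfect inverted repeat IR1 to which FXR binds (0.00913%). Windows were at hand for 6 of the 10 members (Cyp8b1, Cyp27a1, Slc10a1, Abcb11, Nr1h4 and Nr0b2). The Nr1h4 window covers the start of the transcripts Nr1h4-201 and Nr1h4-202, and the start of a longer transcript, Nr1h4-203, lies at position -26977 from that start.

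Per length, the uptake transporter Slc10a1 and the conjugating enzyme Slc27a5 were the most abundant members and Cyp7a1 the least. On the scale of CPM of the main transcript per kilobase of its effective length, the level in PP mice (n = 9) was 385 ± 78.9 for Slc10a1, 320 ± 57.6 for Slc27a5 and 217 ± 57.2 for Cyp8b1. Cyp27a1 (167 ± 35.5), Baat (123 ± 23.0) and Abcb11 (77.8 ± 23.6) followed on the same scale. The lowest levels per kilobase were 59.5 ± 30.6 for Nr0b2, 47.7 ± 22.9 for Cyp7b1, 28.4 ± 4.39 for Nr1h4 and 1.70 ± 1.64 for Cyp7a1. Neighbours in this order overlapped in range, except that the lowest Nr1h4 value of any of the 9 mice (21.6) was above the highest Cyp7a1 value (5.59). Slc10a1, Slc27a5, Cyp8b1, Cyp27a1 and Baat held places 1 to 5 in all 6 groups, and Cyp7a1 held place 10.

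Spread between mice differed among members. Over the 55 mice the highest CPM was 50.5 times the lowest for Cyp7a1, 13.3 times for Cyp7b1, 7.66 times for Cyp8b1 and 6.10 times for Nr0b2. It was 1.78 times for Slc27a5, 1.94 times for Baat and 2.24 times for Nr1h4. Coefficients of variation over all mice were 73.9% for Cyp7a1, 63.7% for Cyp7b1 and 50.3% for Nr0b2, against 13.9% for Baat and 14.7% for Slc27a5.

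To assess whether the sensing arm differed by genotype, Nr1h4 and Nr0b2 were compared first. Nr1h4, the bile acid receptor, ranged in PP mice from 59.3 to 71.1 CPM with a median of 69.1 (n = 9), in PL from 65.4 to 90.6 with a median of 77.2 (n = 8), and in LL from 61.2 to 115 with a median of 81.9 (n = 10). Of the LL mice, 9 were above the PP mean and 7 were above every PP mouse, while of the PL mice 7 were above the PP mean. With GKA the range was 51.5 to 76.7 CPM in PP (median 66.4), 72.1 to 88.7 in PL (median 77.6) and 70.6 to 112 in LL (median 94.1). All 10 LL mice and all 8 PL mice with GKA were above the mean of PP with GKA, and 8 LL mice were above every one of those PP mice.

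Nr0b2, the repressor that FXR induces, had the opposite order of genotypes. It ranged from 20.0 to 69.5 CPM in PP (median 32.5, n = 9), from 16.1 to 44.5 in PL (median 26.0, n = 8) and from 11.7 to 43.6 in LL (median 20.0, n = 10). Of the LL mice, 9 were below the PP mean and 5 were below every PP mouse. With GKA it ranged from 14.1 to 59.6 CPM in PP (median 29.5), from 11.4 to 37.8 in PL (median 23.6) and from 11.4 to 23.7 in LL (median 14.5). All 10 LL mice with GKA were below the mean of PP with GKA, and 3 were below every PP mouse with GKA.

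**Figure D1:**
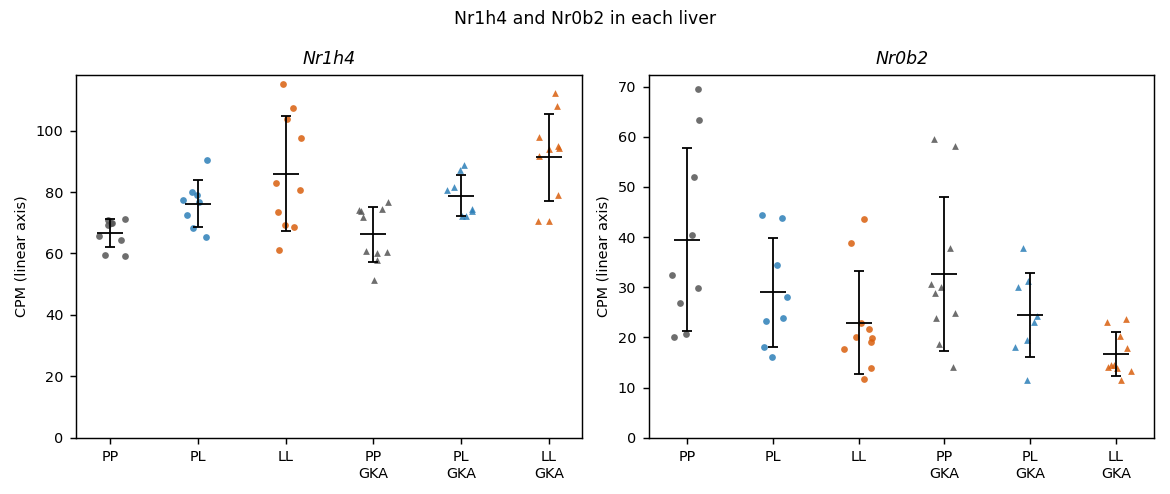
Nr1h4 and Nr0b2 in CPM (linear axis) in each liver, by genotype without GKA (circles) and with GKA (triangles), with bars for the mean and SD of each group. Group means of Nr1h4 went from 66.7 in PP to 76.3 in PL and 86.0 in LL, and those of Nr0b2 from 39.4 to 29.0 and 22.9, without GKA.

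Over both treatments, with GKA as a covariate in 1 model of the 55 mice, Nr1h4 and Nr0b2 were the members that were differentially expressed by LL genotype. A differentially expressed gene (DEG) had an edgeR adjusted p below 0.05 over all genes tested and a ratio of 1.3 or more, or of 0.7 or less. Nr1h4 rose by LL genotype 1.33-fold, which on the log2 scale is 0.41 (SE 0.06, edgeR adjusted p 4.985e-05). Nr0b2 fell by LL genotype, with a log2 fold change of -0.88 (SE 0.17, 0.543-fold, edgeR adjusted p 0.00127). These 2 of 10 members stand beside 195 DEGs among 11477 genes tested, or 1.7% of genes. In bulk liver, fewer cells of a type and less RNA per cell cannot be told apart. The study singled out Nr1h4 in the mice without GKA, so its direction in those mice is not independent evidence. When the first principal component of 16 clock genes was added as a covariate, Nr1h4 was at 0.34 (edgeR adjusted p 0.00685), below the fold threshold, and Nr0b2 at -0.97 (adjusted p 0.00685).

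Baat, which joins bile acids to taurine, had a log2 fold change of -0.21 (SE 0.06, edgeR adjusted p 0.0291) by LL genotype over both treatments, past the p threshold but at 0.863-fold, short of the fold threshold. Cyp7b1, of the alternative route, was at 0.52 (SE 0.25, unadjusted p 0.0445, edgeR adjusted p 0.296), and at 0.31 without LL mouse 46 (unadjusted p 0.189). With these, 4 of 10 members had an unadjusted p below 0.05, beside 16% of all genes tested. The median log2 fold change was -0.07 over the 10 members and 0.003 over all genes.

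Within the mice without GKA, none of the 10 members was a DEG by LL genotype, beside 9 DEGs among 10537 genes (0.0854%), and none was a DEG with DESeq2. The study reported Nr1h4 as up-regulated by LL genotype in this comparison, with DESeq2, a call that was not reproduced here. The study listed many more DEGs in this comparison than the 9 found here, so the smaller number of calls was not particular to Nr1h4. Nr1h4 was at a log2 fold change of 0.37 (SE 0.11, unadjusted p 0.00263, edgeR adjusted p 0.146), which at 1.29-fold was also just short of the fold threshold. Nr0b2 was at -0.79 (SE 0.26, unadjusted p 0.00686, edgeR adjusted p 0.21). Baat was at -0.19 (SE 0.09, unadjusted p 0.0475, edgeR adjusted p 0.413). These 3 members had an unadjusted p below 0.05, beside 11.8% of all genes. Of 13 clock genes tested in this comparison 0 were DEGs and 8 had an unadjusted p below 0.05. With the clock component as a covariate the difference of Nr1h4 was 0.09 (edgeR adjusted p 0.70) and that of Nr0b2 -1.28 (edgeR adjusted p 0.119).

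The other 7 members had unadjusted p between 0.153 and 0.95 in these mice. Cyp7a1, which starts the classical route, had a log2 fold change of 0.40 with an SE of 0.47, and Cyp7b1 one of 0.50 with an SE of 0.41. Leaving out 1 mouse moved Cyp7a1 to between 0.21 (without LL mouse 37) and 0.89 (without PP mouse 1), with 0.23 without LL mouse 44, and it was at 0.70 with an offset for transcript length. Without LL mouse 46, Cyp7b1 was at 0.068, and with the clock component it turned to -0.87. Cyp8b1 was at -0.13 (SE 0.15), Cyp27a1 at -0.12 (SE 0.13) and Abcb11 at -0.19 (SE 0.13). Slc27a5 (0.05, SE 0.11) and Slc10a1 (0.01, SE 0.17) were nearest to 0. With the length offset Abcb11 turned to 0.27 and Slc10a1 to -0.36, and with the clock component Slc10a1 turned to -0.40 and Slc27a5 to -0.089. The edgeR adjusted p was between 0.602 for Abcb11 and 0.992 for Slc10a1. Mean effective length of the main transcript was shorter in LL than in PP mice for every member. For Nr0b2 it was 0.6394 kb against 0.6924 kb without GKA, and 0.6673 kb against 0.6896 kb with GKA. The length offset was instead a mean over all transcripts of a gene, weighted by their abundance, and not the length of the main transcript alone. The part of length in the changes was not tested beyond the fits with that offset.

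**Figure D2:**
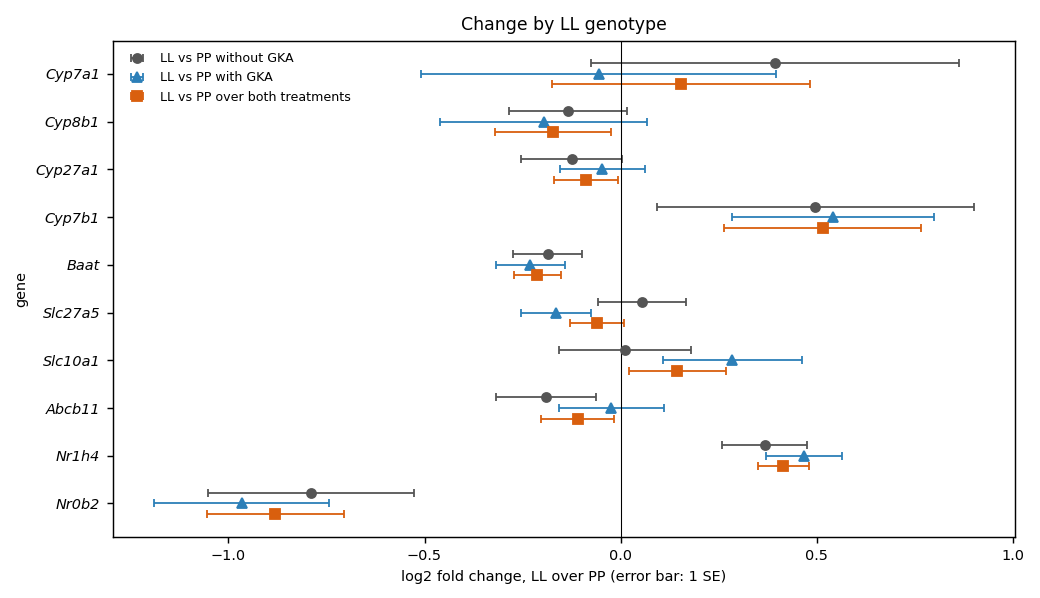
Log2 fold change of each member, LL over PP, without GKA (circles), with GKA (triangles) and over both treatments (squares), with bars of 1 SE. Nr1h4 was above 0 by more than 1 SE (0.37, 0.47 and 0.41) and Nr0b2 below 0 (-0.79, -0.97 and -0.88) in all 3 fits. Cyp7b1 (above 0) and Baat (below 0) were also beyond 1 SE in all 3 fits. The fit over both treatments includes the mice of the fits without and with GKA, which share no mice with each other.

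With GKA in both genotypes, Nr1h4 was a DEG by LL genotype, at a log2 fold change of 0.47 (SE 0.10, 1.38-fold, edgeR adjusted p 0.0401). It was 1 of 25 DEGs among 10460 genes tested (0.239%). Nr0b2 was at -0.97 (SE 0.22, 0.512-fold, edgeR adjusted p 0.0587) and passed the threshold with DESeq2 (-0.97, adjusted p 0.00392). Baat was at -0.23 (SE 0.09, unadjusted p 0.0165, edgeR adjusted p 0.338) and Cyp7b1 at 0.54 (SE 0.26, unadjusted p 0.0473, edgeR adjusted p 0.478). In all, 4 of 10 members had an unadjusted p below 0.05, beside 10.4% of genes. The call of Nr1h4 held in 8 of the 20 fits that each left out 1 mouse (PP mice 13, 14, 15, 17 and 20 and LL mice 48, 50 and 55) and was lost when any of the other 12 was left out. Over these 20 fits the log2 fold change was between 0.43 and 0.50 and the edgeR adjusted p between 0.0181 and 0.0748. It was also lost, at a log2 fold change between 0.42 and 0.46, without the filter on low counts, with the clock component and with an offset for transcript length.

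Heterozygous livers lay between the homozygotes in mean Nr1h4 and Nr0b2 level, without and with GKA. No member was a DEG between PL and PP without GKA (16 DEGs, 0.151% of genes), with GKA (0%) or over both treatments (120 DEGs, 1.05%), and none was with DESeq2. Over both treatments the log2 fold change by PL genotype was 0.22 for Nr1h4 (SE 0.07, unadjusted p 0.00206, edgeR adjusted p 0.0776) and -0.43 for Nr0b2 (SE 0.18, unadjusted p 0.0222, adjusted p 0.252). Cyp7b1 was at 0.62 (SE 0.26, unadjusted p 0.0225, edgeR adjusted p 0.254) and Slc10a1, the uptake transporter, at 0.35 (SE 0.13, unadjusted p 0.00977, adjusted p 0.165), which made 4 of 10 members with an unadjusted p below 0.05, beside 14.1% of genes. The PP mice of this comparison are those of the comparison of LL with PP.

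Within each treatment, the PL genotype gave Nr1h4 log2 fold changes of 0.19 without GKA (SE 0.07, unadjusted p 0.0112, edgeR adjusted p 0.314) and 0.25 with GKA (SE 0.08, unadjusted p 0.00831, adjusted p 0.373). Slc10a1 with GKA was at 0.56 (SE 0.18, unadjusted p 0.00631, edgeR adjusted p 0.355), with a range of 398 to 886 CPM in PL (median 726, n = 8) and 218 to 642 in PP (median 487, n = 10). Of these PL mice, 5 were above every PP mouse with GKA and the ranges overlapped. An unadjusted p below 0.05 was reached by 1 of 10 members without GKA, beside 10.1% of genes, and by 2 of 10 with GKA, beside 8.19%.

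Between LL and PL no member was a DEG without GKA (1 DEG, 0.00942% of genes), with GKA (0%) or over both treatments (39 DEGs, 0.34%), and none was with DESeq2. Cyp8b1, which sets the share of cholic acid, was at a log2 fold change of -0.37 without GKA (SE 0.14, unadjusted p 0.0171, edgeR adjusted p 0.845). It ranged from 269 to 479 CPM in PL (median 378, n = 8) and from 209 to 457 CPM in LL (median 275, n = 10), with 5 LL mice below every PL mouse. It was the sole member with an unadjusted p below 0.05 there, beside 4.58% of genes.

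With GKA, 4 of 10 members had an unadjusted p below 0.05 between LL and PL, beside 8.6% of genes. Nr0b2 was at -0.55 (SE 0.19, unadjusted p 0.00917, edgeR adjusted p 0.416), Cyp27a1 at -0.26 (SE 0.11, unadjusted p 0.0246, adjusted p 0.519) and Slc27a5 at -0.23 (SE 0.10, unadjusted p 0.0288, adjusted p 0.543). Nr1h4 was at 0.21 (SE 0.09, unadjusted p 0.031, edgeR adjusted p 0.543). Over both treatments Nr1h4 (0.19), Nr0b2 (-0.45), Cyp27a1 (-0.23) and Baat (-0.14) had an unadjusted p below 0.05, beside 8.82% of genes, with edgeR adjusted p between 0.273 and 0.465.

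The activator was compared with its absence in each genotype, and no member was a DEG in PP, PL or LL, nor was any other gene (0% in each). None was a DEG with DESeq2. In PP and in PL, 0 of 10 members had an unadjusted p below 0.05, beside 3.56% and 3.18% of genes. In LL, Nr0b2 was the sole member with an unadjusted p below 0.05, at a log2 fold change of -0.44 (SE 0.20, unadjusted p 0.04, edgeR adjusted p 0.795), beside 6.15% of genes. With all genotypes in 1 model, Nr0b2 was at -0.33 by GKA (SE 0.15, unadjusted p 0.0282, edgeR adjusted p 0.878), 1 of 10 members below 0.05 beside 5.29% of genes, and 0% of genes were DEGs. The log2 fold changes of the other 9 members by GKA lay between -0.12 and 0.33.

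Whether GKA acted differently by genotype was tested with the interaction term. For LL against PP no member and no other gene passed an adjusted p of 0.05 with edgeR (0%) or, among members, with DESeq2, and 0 of 10 members had an unadjusted p below 0.05, beside 5.75% of genes. For PL against PP the counts were likewise 0 of 10, beside 0% of genes by adjusted and 3.36% by unadjusted p. Estimates of the 10 members for LL against PP lay between -0.45 and 0.28 on the log2 scale, with SE of up to 0.69.

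Among the synthesis enzymes, Cyp7a1 (chromosome 4, 6265612 to 6275633) ranged from 1.65 to 20.9 CPM in PP (median 4.51, n = 9) and from 0.776 to 17.5 in LL (median 6.81, n = 10). With GKA it ranged from 0.632 to 22.8 CPM in PP (median 7.91) and from 3.90 to 31.9 in LL (median 6.33). The ranges of these groups overlapped. Cyp8b1 (chromosome 9, 121743422 to 121745371) ranged from 199 to 434 CPM in PP (median 339) and from 209 to 457 in LL (median 275), and reached down to 73.6 CPM in a PP mouse and 90.6 CPM in an LL mouse with GKA.

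Cyp27a1 (chromosome 1, 74752314 to 74777056), a mitochondrial hydroxylase, ranged from 162 to 334 CPM in PP (median 265) and from 155 to 309 in LL (median 244). Cyp7b1 (chromosome 3, 18117411 to 18297740) ranged from 40.5 to 156 CPM in PP (median 76.1) and from 28.6 to 379 in LL (median 71.7), where 3 LL mice were above and 2 below every PP mouse. The median of Cyp7b1 was thus lower in LL than in PP while its mean was higher (114 against 80.9 CPM). Cyp7b1 medians were 113 CPM in PL, and with GKA 59.7 in PP, 91.1 in PL and 103 in LL.

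Slc27a5 (chromosome 7, 12722273 to 12732137) and Baat (chromosome 4, 49489289 to 49506563) had the lowest coefficients of variation over all 55 mice, though within PP that of Nr1h4 was lower (7.06% against 15.9% and 15.3%). Slc27a5 ranged from 459 to 733 CPM in PP (median 618) and from 499 to 811 in LL (median 654). With GKA it ranged from 473 to 735 CPM in PP (median 639) and from 455 to 694 in LL (median 549). Baat ranged from 145 to 225 CPM in PP (median 193) and from 145 to 192 in LL (median 157), and in LL 9 of 10 mice lay below the mean of PP. With GKA 9 of 10 LL mice were again below the mean of PP, at 116 to 186 CPM against 147 to 206.

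Slc10a1 (chromosome 12, 80996372 to 81015479) ranged from 386 to 640.3 CPM in PP (median 549) and from 332 to 853 in LL (median 508), so that 3 LL mice were above and 2 below every PP mouse. Abcb11 (chromosome 2, 69068544 to 69173315) ranged from 249 to 573 CPM in PP (median 392) and from 281 to 432 in LL (median 338), inside the PP range. With GKA Abcb11 ranged from 225 to 455 CPM in PP (median 378) and from 255 to 520 in LL (median 327). Exons of Cyp27a1, Slc10a1, Cyp7b1, Baat and Abcb11 overlap a gene on the opposite strand (for Cyp27a1 Prkag3 and for Slc10a1 Srsf5), and whether reads were assigned by strand is not given in the sources used here.

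**Figure D3:**
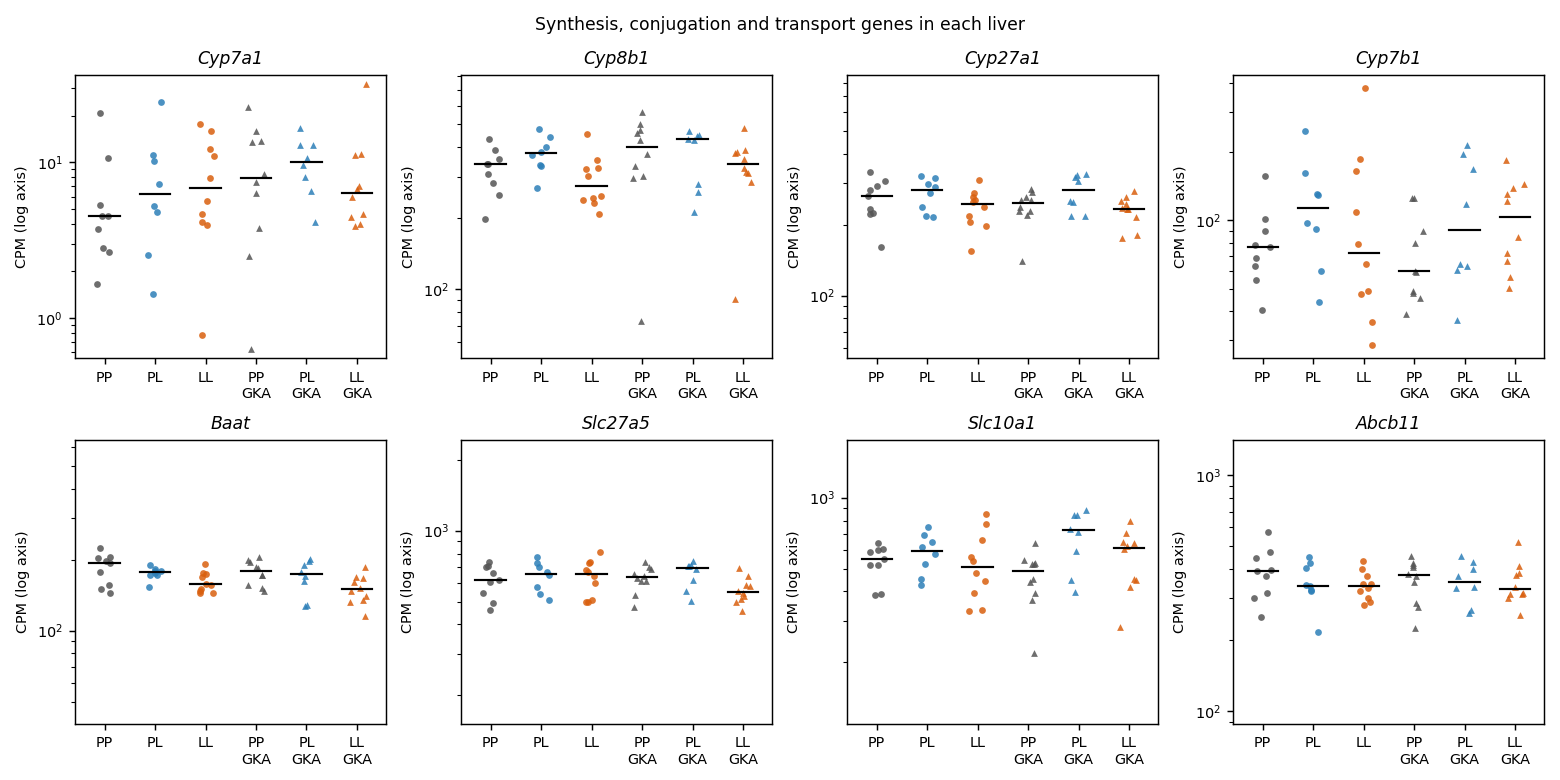
CPM (log axis) of the other 8 members in each liver, by genotype without GKA (circles) and with GKA (triangles), with a line at the median of each group. Groups overlap in every panel, with the widest spread for Cyp7a1 (0.632 to 31.9 CPM) and Cyp7b1 (28.6 to 379 CPM).

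The files are per transcript, and Nr1h4 was the sole member with at least 10% of its reads on more than 1 transcript. Nr1h4-203, which starts at the upstream site, held 64.2% of its reads over all mice and Nr1h4-201, which starts within the window printed above, 35.1%. In mice without GKA the share of Nr1h4-203 ranged from 58.5% to 71.9% in PP (median 68.2%) and from 53.1% to 66.3% in LL (median 61.6%). The mean was 61.1% in LL and 66.4% in PP, a difference (LL minus PP) of -5.325 points with p 0.0251 by a two-sided exact permutation test (n = 10 and 9), or 0.0502 when adjusted over the 2 such tests. With GKA the mean share was 62.6% in LL and 64.6% in PP (two-sided permutation test, p 0.23, n = 10 each). The mean level of Nr1h4-201 was 22.0 CPM in PP and 33.2 CPM in LL, and that of Nr1h4-203 was 44.2 CPM in PP and 52.3 CPM in LL, without GKA. Reads were divided between these transcripts by Salmon's estimate, since most of their exons are shared.

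**Figure D4:**
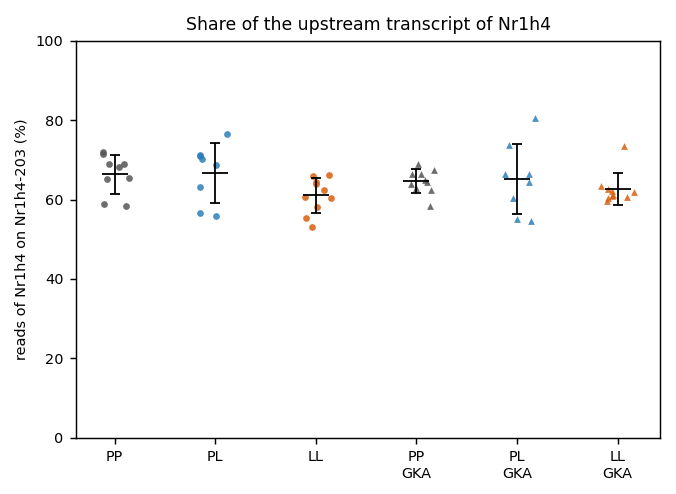
Percent of Nr1h4 reads on the upstream transcript Nr1h4-203 in each liver, by genotype without GKA (circles) and with GKA (triangles), with bars for the mean and SD. The LL mean was 61.1% against 66.4% in PP without GKA, and the ranges of all groups overlap.

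Relations between members were measured over the 55 mice on log2 CPM after each group's mean was subtracted, in a family of 16 relations. Nr1h4 and Slc10a1 were higher in the same mice (Pearson r 0.485, two-sided permutation p 0.00028, adjusted 0.00448; Spearman rho 0.446, permutation p 0.00076, adjusted 0.0122). The r was positive in all 6 groups, from 0.293 to 0.661, and 0.558 without the 2 mice farthest from the median of Nr1h4. Nr0b2 and its target Cyp7a1 had an r of -0.28 (permutation p 0.0389, adjusted 0.124; rho -0.20, permutation p 0.146), negative in all 6 groups and not past the correction. Nr1h4 had an r of 0.224 with Nr0b2 (permutation p 0.101, adjusted 0.269; rho 0.187) and of -0.05 with Abcb11 (permutation p 0.703, adjusted 0.803; rho -0.04). Cyp7a1 and Cyp8b1 had an r of -0.21 (permutation p 0.125, adjusted 0.284; rho 0.0752), and Nr0b2 and Cyp8b1 one of 0.156 (permutation p 0.258, adjusted 0.459; rho 0.205).

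Among all pairs of members, described with no test, Cyp27a1 with Slc27a5 had the highest r (0.818), followed by Cyp7b1 with Slc10a1 (0.740) and Baat with Slc10a1 (0.690). In each mouse both genes of a pair share library, depth and liver piece. Cyp7a1 had an r between -0.28 and 0.203 with every other member. The genes most like each member, up to 3, over the same 55 mice, out of 11506 genes that are not members, were taken by r. They were Serpina3k (0.902), Selenbp2 (0.893) and Ces3a (0.889) for Cyp7b1, and Mup3 (0.885), Cyp2d10 (0.834) and Aadac (0.818) for Slc10a1. For Baat they were Mup12 (0.738), Mup3 (0.735) and Aadac (0.732), for Slc27a5 Hpd (0.868), Ces2a (0.864) and Pipox (0.863), and for Cyp27a1 Slc29a1 (0.840), Serpina1d (0.827) and Tedc2 (0.820). For Abcb11 they were Sdc2 (0.795), Ceacam1 (0.762) and Dhrs3 (0.752), and for Cyp8b1 Tsc22d1 (0.752), Abcd3 (0.751) and Cs (0.732). Nr1h4 was most like Amacr (0.661), Zfp277 (0.655) and Acy3 (0.655), Nr0b2 most like Hes6 (0.643) and Angptl8 (0.642), and Cyp7a1 most like S1pr5 (0.564), Zfp1009 (0.507) and Pard3 (0.503). Mup genes are near-identical copies, so their counts are uncertain.

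Clock genes, which follow the hour of the day in liver, differed by genotype. The component (61.1% of the variance of 16 clock genes, higher where Dbp is higher) averaged -0.63 in the 9 PP mice (SD 0.556), 0.576 in the 8 PL mice (SD 0.798) and 0.516 in the 10 LL mice (SD 0.788). With GKA the averages were -0.89 (SD 1.295) for 10 PP, 0.554 (SD 0.541) for 8 PL and 0.034 (SD 0.756) for 10 LL mice. Over both treatments 6 of 16 clock genes were DEGs by LL genotype, beside 1.7% of all genes, and 10 of 16 by PL genotype, beside 1.05%. The summed level of the list ranged from 227 to 331 CPM in PP and from 272 to 452 CPM in LL without GKA, and from 193 to 407 CPM and 244 to 422 CPM with GKA, with no gene of the list at 0 reads in a group. Its part in the differences of the members was not tested beyond the fits with the component as a covariate.

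Within groups, Abcb11 was lower in mice with a higher clock component (r -0.45, two-sided permutation p 0.00082, adjusted 0.00656; rho -0.43, permutation p 0.00158, adjusted 0.0126). The r was negative in all 6 groups, from -0.68 to -0.16, and -0.35 without the 2 mice farthest from the median component. Nr1h4 had an r of 0.297 with the component (permutation p 0.026, adjusted 0.104) and a rho of 0.362 (permutation p 0.00676, adjusted 0.0361). Cyp8b1 had an r of -0.34 (permutation p 0.0109, adjusted 0.0581; rho -0.20, permutation p 0.137). The other 7 members had an r between -0.20 and 0.139 with adjusted permutation p of at least 0.284.

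**Figure D5:**
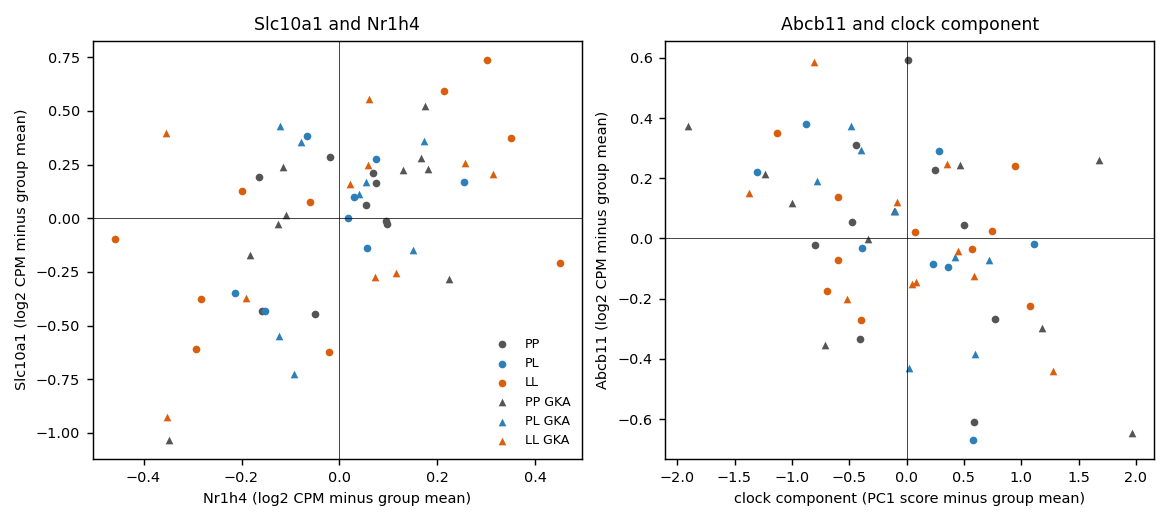
Left, Slc10a1 against Nr1h4, and right, Abcb11 against the clock component, each as the value minus its group mean in 55 mice (log2 CPM for genes, score of the first principal component for the clock), by genotype (colour) and GKA (triangles). Slc10a1 and Nr1h4 have an r of 0.485, and Abcb11 and the clock component an r of -0.45.

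Other genes of the pathway, on lists outside the 10 members, showed no DEG by LL genotype without GKA, with GKA or over both treatments. Of all genes tested, 0.0854%, 0.239% and 1.7% were DEGs in these comparisons. Of the other synthesis genes 11 of 12 were tested, of the other transporters 10 of 13, of the regulators 11 of 13 and of the detoxification genes 3 of 4. Over both treatments the median log2 fold change by LL genotype was -0.02 for other synthesis, 0.11 for other transport, 0.02 for regulators and 0.05 for detoxification, beside 0.003 over all genes. An unadjusted p below 0.05 was reached by 3, 1, 4 and 0 of the tested genes of these lists, beside 16% of all genes.

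Slc27a2, of the same gene family as Slc27a5, was at a log2 fold change of 0.25 by LL genotype (SE 0.07, edgeR adjusted p 0.0223), short of the fold threshold. Akr1d1, the reductase of the sterol ring, was at -0.37 (SE 0.12, edgeR adjusted p 0.0552). Amacr, the racemase of the side chain, was at 0.15 (unadjusted p 0.0344, edgeR adjusted p 0.26). Abcg8, which with Abcg5 exports cholesterol into bile, was at 0.40 over both treatments (SE 0.12, edgeR adjusted p 0.0577). Without GKA, Abcg8 was at 0.54 (unadjusted p 0.000643, edgeR adjusted p 0.104), Abcg5 at 0.47 (unadjusted p 0.00507, adjusted p 0.182), both singled out by the study on these samples, and Abcc3, a basolateral exporter, at 0.51 (unadjusted p 0.0213, adjusted p 0.313). With GKA the log2 fold changes were 0.27 for Abcg8, -0.019 for Abcg5 and 0.084 for Abcc3, with unadjusted p of 0.223 to 0.927. Over both treatments Abcg5 was at 0.22 and Abcc3 at 0.29 (unadjusted p 0.108 and 0.144).

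Among regulators over both treatments, Rxra, the partner of FXR, was at 0.17 and the xenobiotic receptors Nr1i2 and Nr1i3 at 0.18 and 0.32, while Hnf4a, a hepatocyte transcription factor, was at -0.15. Their edgeR adjusted p was between 0.135 and 0.233. Without GKA, Rxra was at 0.19 (edgeR adjusted p 0.338) and Nr1i3 at 0.38 (edgeR adjusted p 0.366). Cyp3a11, which hydroxylates bile acids for disposal, fell by PL genotype over both treatments to a log2 fold change of -1.05 (SE 0.29) at an edgeR adjusted p of 0.0422. It was the single DEG of these 4 lists in that comparison, beside 1.05% of all genes. It is named after its values were seen.

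Markers of other liver cells were compared as lists. Tested were 5 Kupffer cell, 5 stellate cell, 4 endothelial, 7 pericentral, 6 periportal, 5 hepatocyte and 2 cholangiocyte markers. By LL genotype over both treatments none of them was a DEG, beside 1.7% of all genes. An unadjusted edgeR p below 0.05 was reached by 3 of 7 pericentral markers (2 higher, 1 lower) and 1 of 2 cholangiocyte markers (lower). In each other list it was reached by 0 markers, beside 16% of all genes. Medians were -0.18 for Kupffer cell, -0.03 for stellate cell, -0.09 for endothelial and -0.36 for cholangiocyte markers, and 0.11 for pericentral and 0.05 for periportal markers. The summed Kupffer cell markers ranged from 118 to 249 CPM in PP and from 109 to 235 CPM in LL, and the cholangiocyte markers from 11.5 to 96.8 CPM and from 6.97 to 42.5 CPM, without GKA. Their part in the differences of Nr1h4 and Nr0b2 was not tested.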

How the data were processed

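RNA was taken by the authors from the frozen left lateral lobe of male mouse livers (Trizol and RNeasy, DNase on column) and sequenced. They ran FastQC without trimming and quantified reads with Salmon 1.4.0 against GENCODE transcripts (GRCm39). The library kit and strand setting are not given in the sources used here. The deposited files hold estimated counts per transcript and the authors' TPM. TPM was used for the transcript share as an alternative.

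Of 139225 transcripts, 137570 matched GENCODE vM39 names, with 99.76% to 99.86% of reads. Estimated counts were summed per gene and rounded. edgeR 4.0.16 in R 4.3.3 (quasi-likelihood test, TMM, low counts filtered) was fitted over all genes, and p was adjusted by Benjamini-Hochberg. A DEG had an adjusted p below 0.05 and a fold of at least 1.3 or at most 0.7 (adjusted p alone for interactions). CPM used a prior count of 2 on the log2 scale. DESeq2 1.42.0, limma 3.58.1 and SciPy 1.17.1 were also used. Fits were also run on simulated counts with known changes, drawn from the distribution that edgeR assumes. That run cannot show whether the distribution suits these data. Permutation tests drew 100000 permutations where not exact.

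PP mouse 7 was left out, as the study did, and kept in an alternative. The members and gene lists were chosen with earlier results of these data known. All 10 members are named, with log2 fold changes for all 10 by LL genotype without GKA and elsewhere for those with an unadjusted p below 0.05. The remaining members are given elsewhere as counts or ranges. Pathway genes are named by that same p by LL genotype without GKA or over both treatments, and the 3 genes most like each member by r, of which 1 is not reported here. Counting error limits low genes, and edgeR p-values set a difference against the spread between mice. Permutations for the relations shuffled the group-centred values over all mice, not within groups.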

Additional observations from a re-analysis of the deposited data

Results flagged for a closer look

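In 60 groups of values (10 members in 6 groups), 6 had a mouse set apart from the rest by Dixon's criterion on CPM. About 5% of groups would be flagged by chance if values were normally distributed and groups independent. The groups reuse the same mice, and Cyp7a1 and Cyp7b1 had means above medians in all 6 groups, so the count cannot be set against that share. Of the 6 flagged values, 3 were high values of Cyp7a1. PP mouse 1 had 20.86 CPM (next 10.74), PL mouse 23 had 24.28 CPM (next 11.2) and LL mouse 53 with GKA had 31.9 CPM (next 11.25). LL mouse 53 also had the lowest Cyp8b1 of its group, 90.61 CPM (next 283.8). PP mouse 18 with GKA had the lowest Cyp27a1 of its group, 140.3 CPM (next 220.7), and LL mouse 46 the highest Cyp7b1, 379.1 CPM (next 186.1).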

How the results depend on the processing

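The number of members that were DEGs by LL genotype with GKA, 1 with edgeR, was 2 with DESeq2 and 0 without the filter on low counts, with the clock component and with the length offset. Over both treatments it was 2, and 1 with the clock component. The causes were not tested. Leaving out 1 mouse gave 0 to 1 members with GKA (11 of 20 fits changed the count), 0 to 0 without GKA and 2 to 2 over both treatments, these last 39 fits chosen after seeing the data. Nr0b2 with GKA was a DEG without PP mouse 11.

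By LL genotype without GKA, log2 fold changes reversed for Cyp7b1 (-0.87), Slc27a5 (-0.089) and Slc10a1 (-0.40) with the clock component, for Slc10a1 (-0.36) and Abcb11 (0.27) with the length offset, and for Slc10a1 (-0.0076) without the filter. Leaving out 1 mouse gave -0.0094 to 0.088 for Slc27a5 and -0.088 to 0.070 for Slc10a1. Without subtracting group means, r reversed for Nr1h4 with Nr0b2 (-0.225) and for the clock component with Cyp7b1 (0.128), Slc10a1 (0.152) and Nr0b2 (-0.102). With PP mouse 7 kept, r of the component with Slc10a1 was 3.5e-05.

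No paired analysis was possible because each mouse number belongs to a single mouse. Cyp7a1, with as few as 4 reads in a mouse, is the member most limited by depth.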
